A study of Mus musculus with 6 samples.

Results

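The genes described here are 8 enzymes that build NAD or NADP (Nampt, Nmnat1, Nmnat3, Naprt, Nadsyn1, Nmrk1, Nadk and Nadk2) and 2 poly(ADP-ribose) polymerases that consume NAD (Parp1 and Parp2). They were found by symbol and are 10 rows of the 49993 in the deposited table of counts per gene. RNA-seq was done on mouse blastocysts cultured in vitro (n = 3 libraries) and on blastocysts that had developed in vivo (n = 3 libraries). Mothers of both groups were superovulated with 10 IU of PMSG and, after 48 h, 10 IU of hCG, and conceived by natural mating, so hormone treatment was shared by both groups. In vitro embryos left the oviduct as zygotes 19 to 21 h after hCG, lost their cumulus cells to hyaluronidase and grew in KSOM medium under oil at 37 °C and 5% CO2. In vivo embryos stayed in the mother and were flushed from the uterus at day 3.5. Blastocysts of either group were selected by stage and morphology before freezing, and the labels do not give the strain, the age of the cultured embryos at freezing or the number of mothers. The title of the series joins NAD+-dependent Sirt6 to telomere shortening in cultured embryos, and the comparison of these genes asks whether the enzymes that supply or drain NAD differed between the groups.

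NAD carries electrons in metabolism and is also cut up as a substrate by sirtuins and by PARPs, which release nicotinamide. Cells rebuild it mainly by the salvage route: Nampt joins nicotinamide to a phosphoribosyl group in the rate-limiting reaction, and an Nmnat enzyme attaches the adenylyl group. Nicotinic acid enters through Naprt and needs Nadsyn1 at the end, nicotinamide riboside enters through Nmrk1, and NAD kinases (Nadk in the cytosol, Nadk2 in mitochondria) convert NAD to NADP. Parp1 and Parp2 bind DNA breaks and build chains of ADP-ribose from NAD, and Parp1 accounts for most of this activity in mouse cells.

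The 10 genes are all annotated as protein-coding, and RefSeq promoter windows on GRCm38.p6 matched 8 of them (no window for Naprt and Nadk2). The windows of Nampt, Parp1 and Parp2 are shown because these are the entry enzyme of salvage and the pair of NAD consumers, which differed from each other in how their groups separated. Each runs from 250 to 20 bases before a RefSeq start, on the plus strand (for Parp2 that start lies inside the gene as deposited, and the window ends at the base just before the gene): chr12:32820085-32820315 for Nampt, chr1:180568641-180568871 for Parp1 and chr14:50807666-50807896 for Parp2. Capitals mark every match to the E-box CACGTG, which reads the same on both strands, and to the GC box GGGCGG on either strand (CCGCCC on the strand printed), and no matches to these motifs overlap each other.
Nampt: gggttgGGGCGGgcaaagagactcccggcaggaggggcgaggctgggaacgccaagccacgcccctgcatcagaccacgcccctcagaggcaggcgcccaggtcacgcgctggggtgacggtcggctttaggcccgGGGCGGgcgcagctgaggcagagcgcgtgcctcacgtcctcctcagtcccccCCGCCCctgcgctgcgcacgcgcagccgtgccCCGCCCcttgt
Parp1: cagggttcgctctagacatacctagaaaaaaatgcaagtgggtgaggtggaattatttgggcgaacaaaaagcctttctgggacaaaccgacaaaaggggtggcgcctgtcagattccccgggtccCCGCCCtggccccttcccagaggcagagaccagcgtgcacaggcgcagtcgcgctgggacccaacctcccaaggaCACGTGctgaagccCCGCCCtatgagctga
Parp2: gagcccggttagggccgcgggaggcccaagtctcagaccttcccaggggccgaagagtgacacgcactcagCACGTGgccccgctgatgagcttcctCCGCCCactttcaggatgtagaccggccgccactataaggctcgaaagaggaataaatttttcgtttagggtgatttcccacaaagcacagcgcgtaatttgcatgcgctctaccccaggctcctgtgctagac
The Nampt window held 4 GC boxes and 0 E-boxes, the Parp1 window 2 GC boxes and 1 E-box, and the Parp2 window 1 of each. Of 32851 promoter windows of the same length, 30.0% held a GC box and 5.37% an E-box. GC content was 74.5% in the Nampt window, 58.9% in the Parp1 window and 58.0% in the Parp2 window, against a median of 52.0% over all windows. These matches describe the sequence and say nothing of what binds there.

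Library totals ran from 6918288 to 12735551 counts in vitro and from 9174789 to 17643429 counts in vivo, and 0 counts in a library allow up to 0.215 to 0.525 CPM (the per-million share of the library total, scaled between libraries by TMM, a trimmed mean over genes). The libraries of a group were unlike each other: Spearman correlations of log2 CPM over 14301 genes were 0.789 to 0.848 among in vitro libraries and 0.786 to 0.942 among in vivo libraries. Ribosomal RNA genes took 37.8 to 42.1% of counts in vitro and 18.4 to 47.8% in vivo, and in vitro replicate 2 was the library with 7494 Xist counts and 1 count of Ddx3y, where the other 5 had 8 to 341 Xist counts and 539 to 837 Ddx3y counts. The sample descriptions name an inner cell mass, yet all 8 trophectoderm markers examined had counts in every library, with a summed level of 1239 to 2268 CPM in vitro and 670 to 1376 CPM in vivo. All 8 epiblast markers were also present in every library (518 to 1061 CPM in vitro, 663 to 790 CPM in vivo), and 8 primitive endoderm markers summed to 391 to 940 CPM in vitro and 210 to 566 CPM in vivo, with Foxa2 at 0 in all in vivo libraries and Sox7 at 1 count over the 3. Of 8 cumulus markers 6 were at 0 in all libraries, Has2, Ptx3 and Ptgs2 among them, and the list summed to at most 0.651 CPM in vitro and 0 CPM in vivo. Blood markers summed to 0 to 3.64 CPM in vitro and 0.625 to 5.37 CPM in vivo, with Ptprc at 0, and markers of the uterine and oviduct epithelium to 9.76 to 46.6 CPM in vitro and 10.5 to 35.2 CPM in vivo, with Ltf at 0. Of these epithelial markers, the mucin Muc1 was at 0.175, 2.63 and 0.130 CPM in vitro and at 10.3, 4.63 and 15.4 CPM in vivo. Its groups did not overlap (edgeR adjusted p = 0.440), as in 19.3% of all genes tested. Wfdc2, the other marker of that list that could be tested, had the opposite direction. It was at 31.0, 41.3 and 9.50 CPM in vitro and at 24.2, 3.91 and 11.3 CPM in vivo (edgeR adjusted p = 0.674). What these mixtures contribute to the values below was not tested, and in whole embryos fewer cells of a type cannot be told apart from less RNA per cell.

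None of the genes passed the comparison of in vitro with in vivo blastocysts. edgeR's quasi-likelihood test, adjusted over all 14301 genes, could be run on 8 of the 10, and at an adjusted p below 0.05 it called 0 of the 8, as it called 0% of all genes. At an unadjusted p below 0.05 it also had 0 of the 8, where 10.2% of all genes lay below that level, 5.11% higher and 5.08% lower in vitro. DESeq2 called 0 of the 9 to which it gave an adjusted p, all but Nmnat3 (2.81% of all genes it tested) and limma-voom 0 of the 8 (0.713% of all genes). Log2 fold changes, in vitro over in vivo, were positive for Nadk2, Nmrk1 and Nampt and negative for the other 5 tested, with a median of −0.12 beside −0.01 over all genes tested, of which 49.8% were positive. The in vitro values lay wholly apart from the in vivo values in 1 of the 8, Parp1, where 19.3% of all genes tested had groups without overlap, 9.27% higher and 10% lower in vitro. Naprt, too low to be tested, was the other gene of the 10 without overlap. The limits of these statements are wide: the 95% interval of the log2 fold change ran from −1.18 to 0.15 for Parp1, the narrowest, and from −4.28 to 3.01 for Nadsyn1, the widest.

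**Figure D1:**
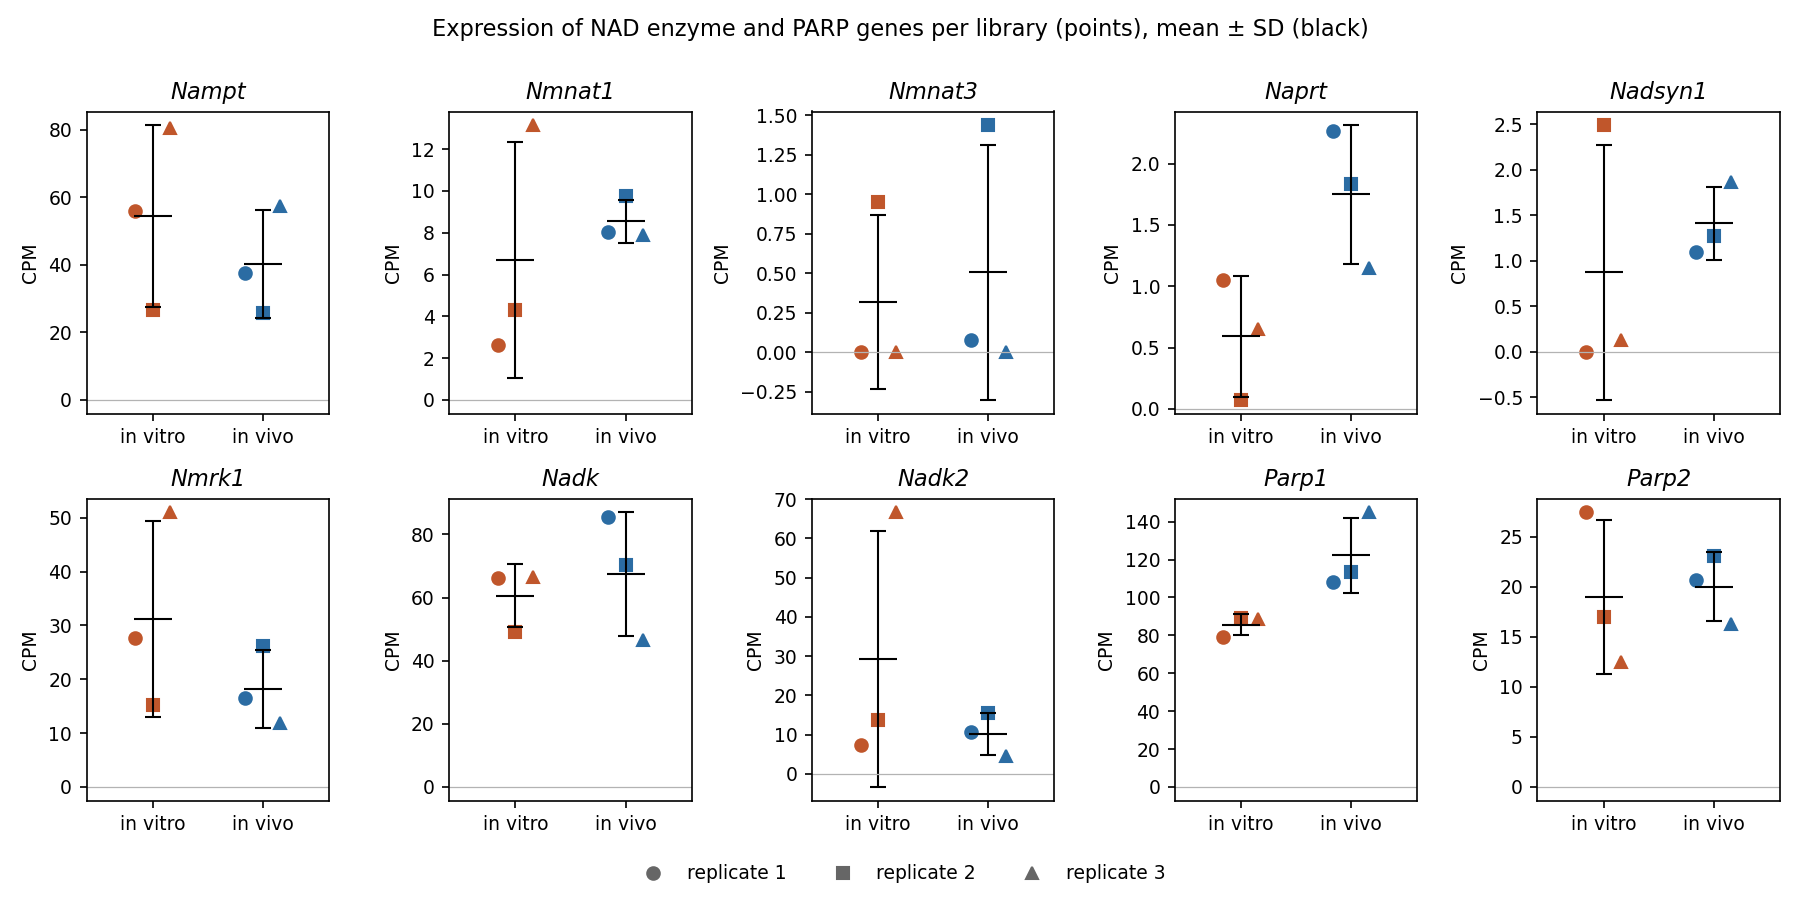
Expression of the 10 genes in CPM (vertical axes, one scale per gene) in 3 in vitro libraries (orange, left) and 3 in vivo libraries (blue, right). Symbols give the replicate, and black marks the mean ± SD. Parp1 and Naprt are the genes in which all in vitro points lie below all in vivo points, and in vitro replicate 3 carries the highest value of Nampt, Nmnat1, Nmrk1 and Nadk2.

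Nampt, the rate-limiting enzyme of nicotinamide salvage, lies on chromosome 12 (32820335 to 32853369, GRCm38, plus strand). It was at 56.0, 26.7 and 80.4 CPM in in vitro replicates 1 to 3, from 320, 365 and 618 counts, and at 37.5, 25.9 and 57.3 CPM in in vivo replicates 1 to 3, from 480, 324 and 801 counts. The groups overlapped, with replicate 2 the lowest and replicate 3 the highest library in each. The mean was 54.4 ± 26.9 CPM in vitro and 40.2 ± 15.9 CPM in vivo (SD, n = 3 each), a log2 fold change of 0.43 ± 0.48 (SE; edgeR adjusted p = 0.806, 95% interval −0.66 to 1.53). Without in vitro replicate 3 the log2 fold change was 0.04.

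Among 6574 other genes with an assigned symbol and a mean of at least 10 CPM, those whose log2 CPM followed that of Nampt most closely over the 6 libraries were Aldh2, a mitochondrial aldehyde dehydrogenase, Srsf11, a splicing factor, and Surf6, a nucleolar protein. Their root mean square difference from Nampt, after centring each gene, was 0.08, 0.13 and 0.14, beside a median of 0.82 over all those genes. Likeness over 6 libraries is a description and was not tested.

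The Nmnat enzymes that complete NAD were both weakly expressed. Nmnat1, the nuclear enzyme, was at 2.62, 4.32 and 13.1 CPM in in vitro replicates 1 to 3 (15, 59 and 101 counts) and at 8.04, 9.74 and 7.87 CPM in in vivo replicates 1 to 3 (103, 122 and 110 counts). In vitro libraries spread on both sides of the in vivo ones, which lay close together. The coefficient of variation was 84.4% in vitro and 12.05% in vivo, beside medians of 50.4% in vitro and 44.0% in vivo over all genes tested. The mean was 6.70 ± 5.65 CPM in vitro and 8.55 ± 1.03 CPM in vivo (SD, n = 3 each), with a log2 fold change of −0.35 ± 0.79 (SE; edgeR adjusted p = 0.918). Nmnat1 lies on the minus strand of chromosome 4 (149467569 to 149485210), its exons share 26 bases with Lzic on the opposite strand, and reads from those bases cannot be assigned to a strand.

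Nmnat3, the mitochondrial enzyme, had 0, 13 and 0 counts in in vitro replicates 1 to 3 and 1, 18 and 0 counts in in vivo replicates 1 to 3. Replicate 2 of each group thus held nearly all of its reads, at 0.951 CPM in vitro and 1.44 CPM in vivo, and the other libraries held 0 or 1 count. The mean was 0.317 ± 0.549 CPM in vitro and 0.505 ± 0.808 CPM in vivo (SD, n = 3 each), a ratio of means of 0.628. The pooled CPM ratio of in vitro to in vivo was 0.993, with a 95% exact counting interval of 0.451 to 2.12, and edgeR without a filter gave a log2 fold change of −0.59 (adjusted p = 0.941). The two-sided exact permutation test over libraries gave p = 0.7, where 3 against 3 libraries cannot give less than 0.1. Nmnat2, which serves neurons, had 0 to 28 counts per library in vitro and 2 to 36 in vivo.

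Nicotinic acid entry was at a low level in both groups. Naprt, which starts the route from nicotinic acid, lies on chromosome 15 (75890963 to 75894481, minus strand) and had 6, 1 and 5 counts in in vitro replicates 1 to 3, against 29, 23 and 16 counts in in vivo replicates 1 to 3. In CPM these were 1.05, 0.0732 and 0.651 in vitro and 2.26, 1.84 and 1.15 in vivo. Every in vitro library lay below every in vivo library, but the nearest values, 1.05 CPM in vitro and 1.15 CPM in vivo, rested on 6 and 16 counts. The mean was 0.591 ± 0.491 CPM in vitro and 1.75 ± 0.565 CPM in vivo (SD, n = 3 each), and the pooled ratio from 12 counts in vitro and 68 in vivo was 0.256 (95% exact counting interval 0.126 to 0.477, which covers counting error only). The two-sided exact permutation test gave p = 0.1, the smallest it can give. Among all 27882 genes with at least 1 count, 12.3% had groups without overlap. The filter on low counts removed Naprt from the edgeR test. Without any filter edgeR gave an adjusted p of 0.719, and DESeq2 gave 0.622.

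Nadsyn1, the glutamine-using synthetase that ends the nicotinic acid route, is on chromosome 7 (143795589 to 143822862, minus strand). It had 0, 34 and 1 counts in in vitro replicates 1 to 3 and 14, 16 and 26 counts in in vivo replicates 1 to 3. In vitro replicate 2 was the highest of the 6 libraries at 2.49 CPM, and in vitro replicates 1 and 3 were the lowest, below 1.09 to 1.86 CPM in vivo. The log2 fold change was −0.64 ± 1.62 (SE; edgeR adjusted p = 0.928). Without in vitro replicate 2 it was −4.13, with an adjusted p of 0.464, so the value rested on that library.

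Nmrk1, the kinase of nicotinamide riboside, is on chromosome 19 (18632016 to 18652428, plus strand). It was at 27.6, 15.1 and 51.0 CPM in in vitro replicates 1 to 3 and at 16.5, 26.1 and 11.9 CPM in in vivo replicates 1 to 3. Both the highest library and the next highest were in vitro ones, while in vitro replicate 2 was below the in vivo libraries 1 and 2. The mean was 31.3 ± 18.2 CPM in vitro and 18.2 ± 7.25 CPM in vivo (SD, n = 3 each), with a log2 fold change of 0.78 ± 0.55 (SE; edgeR adjusted p = 0.672). Without in vitro replicate 3 it was 0.24. The muscle paralog Nmrk2 had 0 counts in all 6 libraries.

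The NAD kinases were at different levels. The log2 fold change of Nadk2 depended on a single library, while that of Nadk stayed between −0.36 and 0.03 with 1 library left out. Nadk, the cytosolic kinase, is on chromosome 4 (155562381 to 155591001, plus strand). It was at 66.1, 49.2 and 66.6 CPM in in vitro replicates 1 to 3 and at 85.4, 70.2 and 46.5 CPM in in vivo replicates 1 to 3. The in vitro values fell inside the in vivo range, and the means were 60.6 ± 9.94 CPM in vitro and 67.4 ± 19.6 CPM in vivo (SD, n = 3 each). The log2 fold change was −0.15 ± 0.35 (SE; edgeR adjusted p = 0.920, 95% interval −0.95 to 0.64), and without in vivo replicate 1 it was 0.03.

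Nadk2, the mitochondrial kinase, is on chromosome 15 (9071260 to 9110496, plus strand). It was at 7.34, 13.8 and 66.6 CPM in in vitro replicates 1 to 3, from 42, 188 and 512 counts, and at 10.7, 15.4 and 4.58 CPM in in vivo replicates 1 to 3, from 137, 193 and 64 counts. A single library, in vitro replicate 3, stood above all others, and the remaining 5 interleaved. The mean was 29.2 ± 32.5 CPM in vitro and 10.2 ± 5.43 CPM in vivo (SD, n = 3 each), and the log2 fold change of 1.52 ± 0.84 (SE; edgeR adjusted p = 0.584, 95% interval −0.38 to 3.41) was the largest of the 8 tested genes. Without in vitro replicate 3 it was 0.06. The ratio of Nadk2 to Nadk per kb inside each library was 0.0459, 0.116 and 0.413 in vitro and 0.0518, 0.0906 and 0.0408 in vivo, again set apart in in vitro replicate 3. It uses the deposited length of Nadk2, 8132 bases, which sums a copy on the primary chromosome (4066 bases) and one on a scaffold. On the primary length each ratio would be higher by the same factor, so the comparison between libraries is unchanged.

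In vitro replicate 3 held the highest value of 4 of the 10 genes (Nampt, Nmnat1, Nmrk1 and Nadk2) and the lowest value of 1, Parp2. In vitro replicate 1 held the lowest value of Nmnat1, Nadsyn1 and Parp1 and shared the lowest, 0, for Nmnat3 with in vitro replicate 3 and in vivo replicate 3, and in vivo replicate 3 that of 3 others (Nmrk1, Nadk and Nadk2). What share of all genes was highest or lowest in each library was not counted, so these counts have no background. The 4 genes highest in in vitro replicate 3 belong to salvage, riboside entry and NADP synthesis. That library also had the highest summed trophectoderm markers (2268 CPM) and the lowest summed epiblast markers (518 CPM), but single markers diverged. Krt8, Id2, Eomes and Elf5 were highest there, while Tfap2c (7.29 CPM) was lowest of all libraries. Cdx2 (10.3 CPM) and Gata3 (191 CPM) were lowest there among in vitro libraries. Of the epiblast markers, Pou5f1, Klf2 and Tdgf1 were lowest there, while Fgf4 (45.0 CPM) was highest there among in vitro libraries. Whether the enzyme values and these sums belong together was not tested.

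Parp1, the main poly(ADP-ribose) polymerase, was the only tested gene of the set with no overlap between groups. It lies on chromosome 1 (180568891 to 180600999, plus strand) and had 453, 1219 and 680 counts in in vitro replicates 1 to 3 and 1388, 1423 and 2025 counts in in vivo replicates 1 to 3. It was at 79.2, 89.2 and 88.5 CPM in the in vitro libraries, against 108, 114 and 145 CPM in the in vivo libraries. All in vitro values lay below all in vivo values, and the in vitro libraries lay close together, with a coefficient of variation of 6.51% in vitro and 16.2% in vivo. Medians over tested genes of at least 10 mean CPM were 38.2% in vitro and 32.7% in vivo. The mean was 85.6 ± 5.57 CPM in vitro and 122 ± 19.8 CPM in vivo (SD, n = 3 each). The log2 fold change of −0.51 ± 0.29 (SE) missed the threshold of edgeR (adjusted p = 0.592, unadjusted p = 0.114, 95% interval −1.18 to 0.15). With 1 library left out in turn, it ranged from −0.61 to −0.37. The sign it kept follows from the groups lying apart and adds nothing to that.

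The genes whose profile over the 6 libraries was closest to that of Parp1 were Tomm6, a subunit of the mitochondrial import pore, Cul5, a ubiquitin ligase scaffold, and Cox6a1, a subunit of cytochrome oxidase, at root mean square differences of 0.06, 0.08 and 0.10 in centred log2 CPM, beside a median of 0.67 over the 6574 genes. Their fold changes follow from this choice and are not a further result.

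Parp2, the related polymerase, is on chromosome 14 (50807897 to 50821301, plus strand). It was at 27.5, 17.0 and 12.5 CPM in in vitro replicates 1 to 3, from 157, 232 and 96 counts, and at 20.7, 23.1 and 16.3 CPM in in vivo replicates 1 to 3, from 265, 289 and 227 counts. The in vitro libraries held both the highest and the lowest value. The mean was 19.0 ± 7.68 CPM in vitro and 20.0 ± 3.46 CPM in vivo (SD, n = 3 each), with a log2 fold change of −0.08 ± 0.48 (SE; edgeR adjusted p = 0.972, 95% interval −1.17 to 1.01). Per kb of gene length, Parp2 stood at 0.665, 0.365 and 0.271 of the Parp1 level in in vitro replicates 1 to 3 and at 0.366, 0.390 and 0.215 in in vivo replicates 1 to 3. The libraries of the groups overlapped in this ratio (two-sided exact permutation test, p = 0.6).

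**Figure D2:**
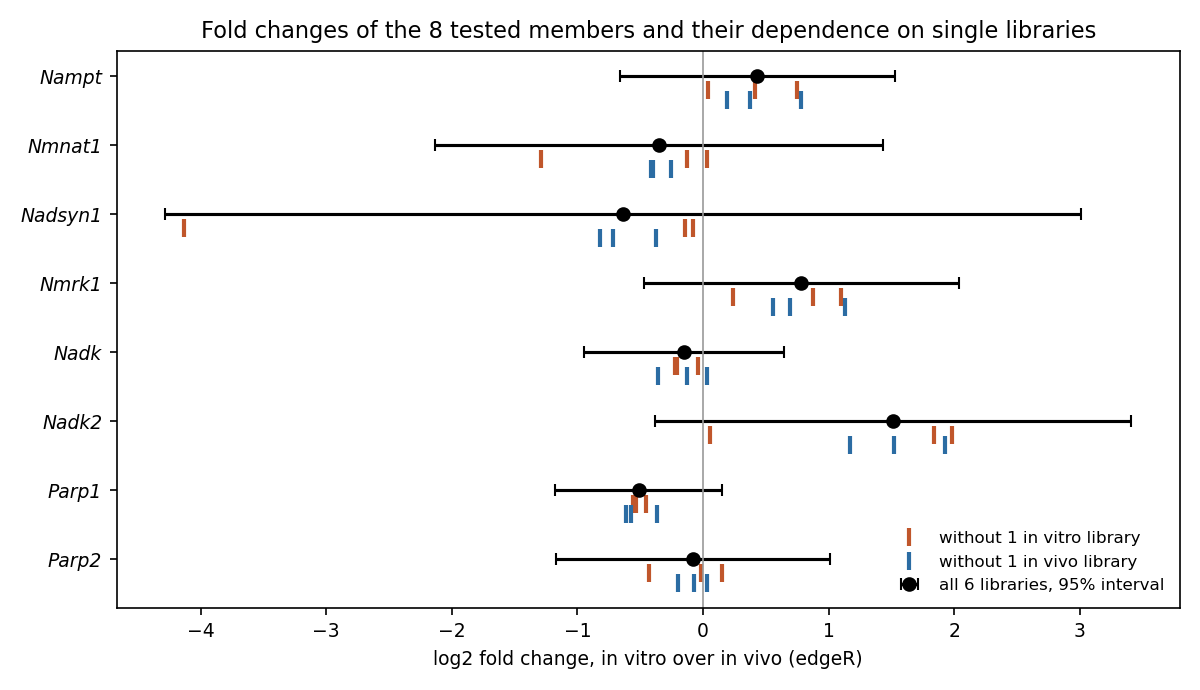
Log2 fold change, in vitro over in vivo, from edgeR for the 8 tested genes (horizontal axis). Black points and bars are the estimates from 6 libraries with 95% intervals, orange and blue ticks the estimates with 1 in vitro or 1 in vivo library left out. All 8 intervals include 0, and the ticks of Nadk2 run from 0.06 to 1.98 while those of Parp1 run from −0.61 to −0.37.

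Levels were also set side by side per kb of gene length, since counts alone favour long genes. Parp1 stood highest in every library at 28.4 ± 6.54 CPM per kb (SD, n = 6 libraries), and Nadk followed at 19.0 ± 4.29 CPM per kb. Nmrk1, Nampt and Parp2 came next at 10.5 ± 6.08, 10.4 ± 4.67 and 10.2 ± 2.81 CPM per kb, and these 3 did not differ from their neighbours in the order beyond their spread: Nmrk1 exceeded Nampt in 3 of 6 libraries and Nampt exceeded Parp2 in 2 of 6. Naprt, Nadsyn1 and Nmnat3 stood lowest at 0.619 ± 0.418, 0.415 ± 0.351 and 0.131 ± 0.200 CPM per kb. Between them and Parp2 were Nadk2 at 2.43 ± 2.87 and Nmnat1 at 1.56 ± 0.771 CPM per kb, but the deposited length of these genes sums a copy on the primary chromosome and one on an alternate or fix scaffold. On the length of the primary copy alone, chosen after this was seen, Nadk2 was at 4.85 ± 5.74 and Nmnat1 at 3.12 ± 1.54 CPM per kb, with the same place in the order of means. Nadk2 was higher than Nmnat1 in 3 of 6 libraries, all of them in vitro, and lower in every in vivo library. In in vivo replicate 2 the values were close, at 1.89 CPM per kb for Nadk2 and 1.99 for Nmnat1. This split was not tested. On the deposited length Nadk2 averaged 3.60 CPM per kb in vitro and 1.26 in vivo, where Nmnat1 averaged 1.37 in vitro and 1.75 in vivo. The labels do not say how reads matching both copies were counted. Of protein-coding genes with such an extra copy 25.4% had no counts in any library, beside 26.2% of the others.

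Ratios inside a library do not depend on how libraries are scaled, and 4 ratios could be tested. Naprt to Nampt per kb was 0.0451, 0.00659 and 0.0195 in in vitro replicates 1 to 3 and 0.145, 0.171 and 0.0480 in in vivo replicates 1 to 3. All 3 in vitro values lay below the in vivo ones, with a mean log2 ratio of −5.80 ± 1.39 in vitro and −3.24 ± 1.00 in vivo (SD, n = 3 each) and a two-sided exact permutation p of 0.1, the smallest possible (0.4 adjusted over the 4 ratios). The lowest ratio, in in vitro replicate 2, rested on 1 Naprt count: the difference in mean log2 ratio was −2.56, but −1.84 without that library and −3.23 without in vitro replicate 1. Nmrk1 to Nampt was 0.953, 1.09 and 1.22 in vitro and 0.848, 1.95 and 0.39997 in vivo, so riboside kinase and salvage enzyme kept a narrower ratio in vitro than in vivo, a difference in spread that was not tested (exact permutation p = 0.7 for the difference in level). For Nadk2 to Nadk the difference in mean log2 ratio was 1.17 (exact permutation p = 0.3), against 0.34 without in vitro replicate 3, and it reached 1.92 when in vitro replicate 1 was left out. For Parp2 to Parp1 it was 0.37 (exact permutation p = 0.6), against 0.01 without in vitro replicate 1 and 0.10 when in vivo replicate 3 was left out, and it reached 0.65 when in vitro replicate 3 was left out.

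**Figure D3:**
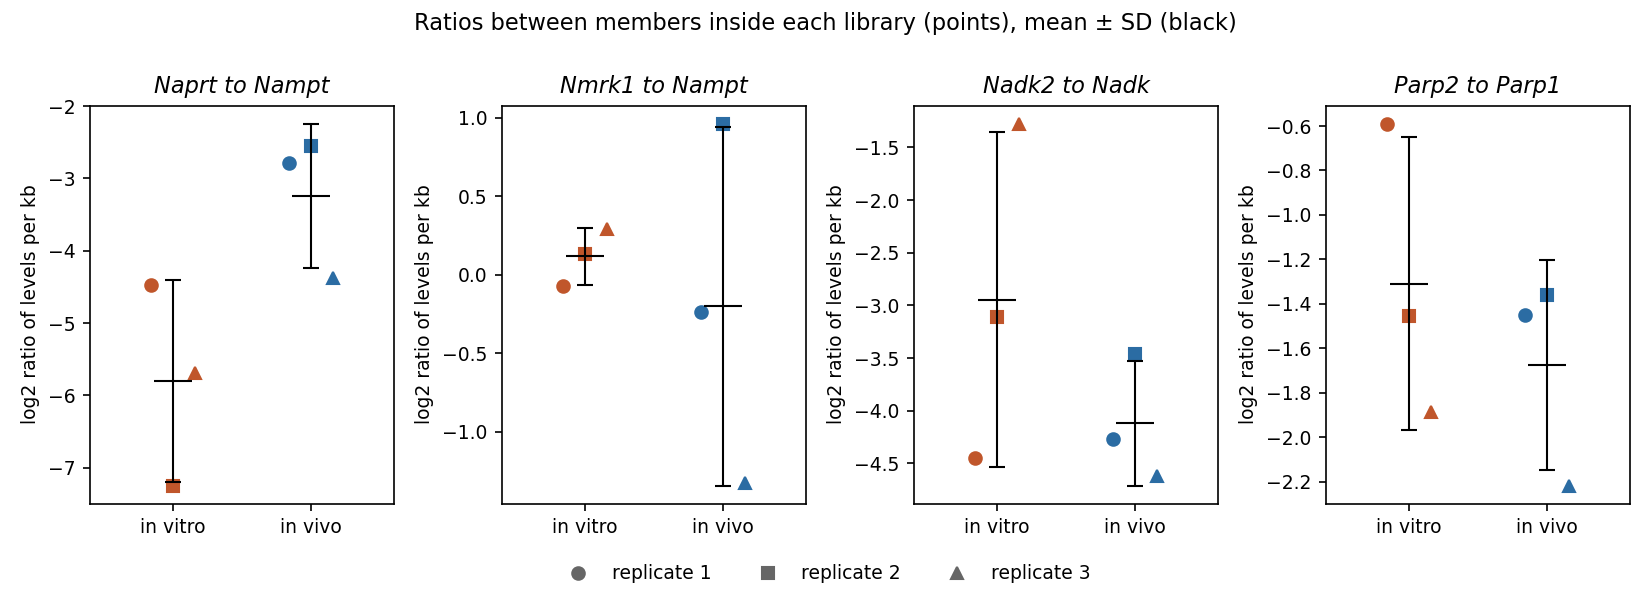
Log2 of the ratio of length-scaled levels between pairs of members inside each library (vertical axes), for 3 in vitro libraries (orange, left) and 3 in vivo libraries (blue, right), with mean ± SD in black. The groups separate for Naprt to Nampt, where the mean is −5.80 in vitro and −3.24 in vivo, and overlap for the other pairs. Lengths are the deposited ones, which for Nadk2 sum a primary and a scaffold copy.

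Other genes of NAD synthesis and supply gave no call either. Of 13 such genes 10 could be tested, 6 with a positive and 4 with a negative log2 fold change (median 0.26), and edgeR, DESeq2 and limma-voom each called 0. Slc29a1, a nucleoside transporter, and Pnp, which splits nicotinamide riboside and purine nucleosides, had unadjusted edgeR p-values below 0.05, as did 10.2% of all genes tested. Pnp was at 51.9, 41.3 and 71.9 CPM in vitro and at 33.6, 33.9 and 21.8 CPM in vivo (log2 fold change 0.89 ± 0.38 (SE), edgeR adjusted p = 0.482). Its groups did not overlap, as in 19.3% of all genes tested. Of the 10 tested genes of the list, 1 (Pnp) was without overlap and higher in vitro, and 1 was without overlap and lower. Reads of Pnp could be shared with its near copy Pnp2, which had 0 to 45 counts in vitro and 0 to 51 in vivo. Slc29a1 was at 49.5, 35.1 and 15.9 CPM in vitro and at 13.2, 13.0 and 18.04 CPM in vivo (log2 fold change 1.18 ± 0.51, edgeR adjusted p = 0.482). Nt5e, the surface nucleotidase CD73, averaged 8.21 ± 7.34 CPM in vitro and 1.70 ± 1.15 CPM in vivo, and Nudt12, which hydrolyses NADH, 6.75 ± 5.00 CPM in vitro and 11.4 ± 4.33 CPM in vivo (SD, n = 3 each). Qprt, which turns quinolinate into the nicotinic acid mononucleotide, had 0 counts in all 6 libraries.

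The kynurenine branch, which makes NAD from tryptophan, had few or no counts for most of its genes. Of its 9 genes Haao and Kynu had 0 counts in all libraries, Tdo2, Ido1, Kmo and Acmsd had at most 2 counts in any library, and 3 were tested with 0 calls by each tool. Slc7a5, a transporter of tryptophan and other amino acids, was at 53.0, 36.2 and 1.04 CPM in vitro and at 11.2, 12.1 and 6.01 CPM in vivo. In vitro replicates 1 and 2 lay above and in vitro replicate 3 below all in vivo libraries (log2 fold change 1.62 ± 1.01, edgeR adjusted p = 0.620). Afmid, the kynurenine formamidase, averaged 4.26 ± 2.80 CPM in vitro and 6.64 ± 2.29 CPM in vivo and shares 325 exon bases with Tk1 on the other strand. Ido2 had 0 to 33 counts per library in vitro and 6 to 19 in vivo.

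Among 10 other consumers and genes of nicotinamide disposal, 4 were tested, 3 with a positive log2 fold change (median 1.30), and 0 were called by each tool. Cd38, an NAD glycohydrolase, was at 4.02, 4.98 and 9.24 CPM in vitro and at 2.50, 3.43 and 0.716 CPM in vivo (log2 fold change 1.45 ± 1.01 (SE), edgeR adjusted p = 0.663). Its groups did not overlap, as in 19.3% of all genes tested. Sarm1, the NAD hydrolase of axon degeneration, was at 2.97, 16.8 and 56.9 CPM in vitro and at 9.61, 13.9 and 0.0716 CPM in vivo, again highest in in vitro replicate 3. It shares 732 of 7317 exon bases with Slc46a1 on the other strand. Enpp1 and Enpp3, which cleave extracellular nucleotides, averaged 22.0 ± 10.2 and 2.98 ± 3.86 CPM in vitro and 9.89 ± 12.7 and 3.78 ± 2.28 CPM in vivo (SD, n = 3 each). Nnmt, which methylates nicotinamide, had 0 to 35 counts in vitro and 0 to 16 in vivo.

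Of 14 other PARP family genes 10 were tested, 4 positive and 6 negative (median −0.42), with 0 calls by each tool. Tnks2, a tankyrase, was at 227, 71.0 and 112 CPM in vitro and at 55.4, 38.1 and 95.1 CPM in vivo (log2 fold change 1.12 ± 0.50, edgeR adjusted p = 0.497). Its paralog Tnks was at 17.8, 4.68 and 3.77 CPM in vitro and at 6.01, 7.18 and 40.9 CPM in vivo, with in vivo replicate 3 far above the rest (log2 fold change −1.05 ± 0.93, adjusted p = 0.746). Zc3hav1, an antiviral zinc finger protein of the family that has lost catalytic activity, averaged 70.4 ± 10.9 CPM in vitro and 107 ± 56.9 CPM in vivo. Parp4, found in vault particles, averaged 4.79 ± 2.56 CPM in vitro and 1.83 ± 1.76 CPM in vivo (SD, n = 3 each). Parp11, too low to be tested and named after its values were seen, had 43, 12 and 55 counts in in vitro replicates 1 to 3 and 6, 4 and 9 counts in in vivo replicates 1 to 3. Its groups did not overlap, as in 12.3% of all genes with at least 1 count. The nearest values, 0.878 CPM in vitro and 0.644 CPM in vivo, rested on 12 and 9 counts. Parp3 had 0 counts in all libraries.

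Of 15 genes that remove ADP-ribose or work with PARPs 14 were tested, 6 positive and 8 negative (median −0.15), and each tool called 0. Macrod1, a hydrolase of protein-bound ADP-ribose, had 0, 5 and 0 counts in in vitro replicates 1 to 3 and 27, 18 and 73 counts in in vivo replicates 1 to 3, without overlap (edgeR adjusted p = 0.453, unadjusted p = 0.0332). Chd1l, a chromatin remodeller recruited by poly(ADP-ribose), was at 6.30, 3.59 and 7.16 CPM in vitro and at 1.41, 0.798 and 0.787 CPM in vivo, also without overlap (log2 fold change 2.50 ± 1.04 (SE), edgeR adjusted p = 0.465). Of the 14 tested genes of the list, 1 was without overlap and higher in vitro, and 2 were without overlap and lower. Over all genes tested, 19.3% had groups without overlap and 10.2% an unadjusted edgeR p below 0.05. Parg, which degrades the chains that Parp1 builds, was at 7.69, 16.1 and 7.68 CPM in vitro and at 18.2, 13.1 and 44.2 CPM in vivo (log2 fold change −1.26 ± 0.62, edgeR adjusted p = 0.536). Nudt9, which hydrolyses free ADP-ribose, averaged 21.3 ± 4.92 CPM in vitro and 11.9 ± 5.84 CPM in vivo (SD, n = 3 each). Sirtuins, deacylases that also consume NAD, include Sirt6, which was at 18.5, 23.9 and 19.0 CPM in vitro and at 56.5, 79.7 and 48.9 CPM in vivo (log2 fold change −1.59 ± 0.37 (SE), edgeR adjusted p = 0.315). Among the 6 tested sirtuins edgeR called 0 and DESeq2 1, Sirt6, where DESeq2 called 2.81% of all genes it tested. The groups of Sirt6 did not overlap, as in 19.3% of all genes tested, while Sirt3, Sirt4 and Sirt7 overlapped between the groups.

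**Figure D4:**
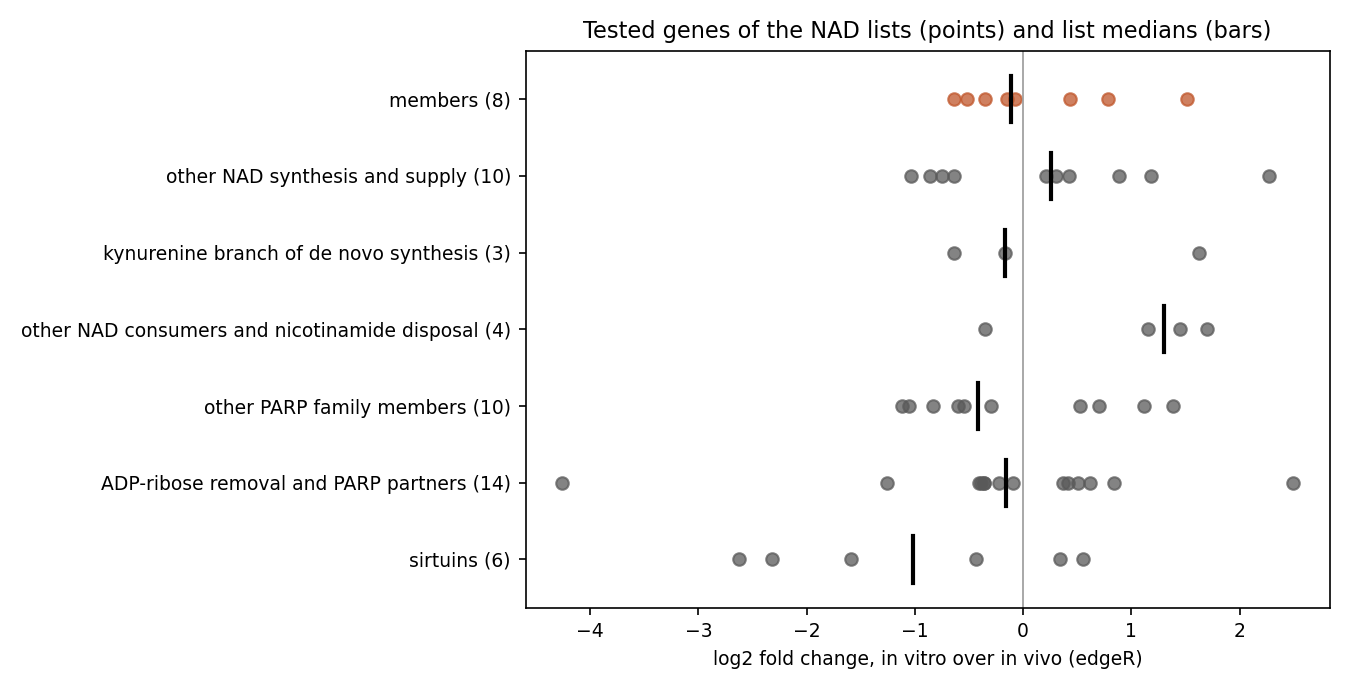
Log2 fold change, in vitro over in vivo, from edgeR (horizontal axis) for each tested gene of the 10 members (orange) and of the 6 related lists (grey), with the number of tested genes in brackets and the list median as a black bar. The members run from −0.64 to 1.52 around a median of −0.12, and Macrod1 (−4.26) and Chd1l (2.50) are the ends of the list of ADP-ribose removal.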

How the data were processed

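Total RNA of frozen mouse blastocysts was extracted with a microscale kit and sequenced after transposase-based library preparation, per the labels' protocols, which name no strand marking. The authors deposited raw counts per gene for 49993 genes with no repeated name. FastQC 0.11.2, DESeq2 and the build GRCm39 appear in the submitters' processing notes. The coordinates of the deposited table, however, equalled RefSeq on GRCm38.p6 for 49589 of 49626 genes, so GRCm38 is used. No source used here names the aligner or counter.

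Libraries were grouped by title. edgeR 4.0.16 (R 4.3.3) was run on all genes past its filter on low counts (14301), with TMM scaling, robust dispersions and the legacy quasi-likelihood F-test (two-sided, Benjamini-Hochberg over all genes, threshold 0.05). DESeq2 1.42.0, limma 3.58.1 and other settings were run beside it. SEs come from the F statistic, and CPM use TMM-scaled totals. The code was tested on simulated data. No label says that libraries came from separate mothers, and p-values then reflect only the spread among these samples, which may be technical, and intervals on counts cover counting error only. Named were all 10 members, up to 4 genes of smallest p per list, Sirt6, and for Nampt and Parp1 the 3 genes closest in centred log2 CPM (prior count 2). Silent list members, overlapping genes, Pnp2 and Nmnat2 were named after their values were seen. Members and lists were chosen with earlier results of these data known.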

Additional observations from a re-analysis of the deposited data

How the results depend on the processing

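Of the 8 tested genes, none passed under any alternative (DESeq2 size factors, library totals alone, no or a stricter filter, each library left out, the replicate block, other tools or forms of the test, ribosomal RNA left out). Over these, Nampt, Nadsyn1, Nmrk1, Nadk2 and Parp1 kept their sign, and Nadsyn1 was not tested under the stricter filter. For Parp1 the sign with a library left out follows from its groups lying apart. Library totals alone moved the median gene by −0.31 and gave Parp1 −0.78 and Nampt 0.13. With 1 library left out, the log2 fold change was −1.29 to 0.0329 for Nmnat1 (highest without in vitro replicate 1), −0.36 to 0.0344 for Nadk (highest when in vivo replicate 1 was left out) and −0.43 to 0.15 for Parp2 (0.15 without in vitro replicate 3, 0.0285 without in vivo replicate 2). DESeq2 with 1 library left out, added after the data were seen, gave −1.28 to 0.0409 for Nmnat1, −0.35 to 0.0603 for Nadk (0.00627 without in vitro replicate 2) and −0.43 to 0.16 for Parp2 (0.0232 leaving out in vitro replicate 2, 0.0422 leaving out in vivo replicate 2). With 1 library left out of edgeR, Nadk2 ranged from 0.06 to 1.98 and Nmrk1 from 0.24 to 1.13. The difference in log2 ratio of Nmrk1 to Nampt was −0.24 without in vivo replicate 3, in a range of −0.24 to 0.90. Of the 8 tested members, 1 to 3 had no overlap when 1 library was left out: Nadsyn1 and Nmrk1 joined without in vitro replicate 2 (33.3% of all genes tested there), Nmnat1 without in vitro replicate 3 (29.1%) and Nadk without in vivo replicate 3 (37.7%). Over all genes, edgeR called 391 without a filter and 3 in its newer form, DESeq2 459 (255, 855 and 373 leaving out in vitro replicates 1, 2 and 3, and 294, 152 and 907 leaving out in vivo replicates 1, 2 and 3) and limma-voom 102, against 0. With the primary placement alone, Nmnat1 was at 3.12 CPM per kb. The cause of these moves was not tested.

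Same-numbered replicates did not pair: deviations from the group means correlated at −0.0986, 0.0960 and −0.0443. The fit with the replicate block called 0 genes and gave Nadk2 0.86 and Nadsyn1 −2.41. Depth limits Naprt, Nadsyn1 and Nmnat3, with at most 34 counts in any library.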
